A study of Caenorhabditis elegans with 6 samples.

Results

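The 43 genes described here are the protein-coding genes of Caenorhabditis elegans whose symbol is msp- or ssp- followed by a number. They are 31 msp genes (major sperm proteins) and 12 ssp genes (sperm-specific family, class P), out of 20222 protein-coding genes in the table of reads aligned to transcripts. The rule used names alone and no measured value, and 4 msp pseudogenes were left out. The series holds small RNA reads of whole adult males, with 3 libraries of wild type animals and 3 of prg-1 null animals, called the mutant below. The prg-1 gene codes for PRG-1, the Argonaute that binds piRNAs, and the labels name no specific allele. Both genotypes were grown at 25 °C, each library came from 20 to 30 males, and the animals were collected 24 h after the mid-L4 larval stage.

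Major sperm protein is the most abundant protein of nematode sperm. Nematode sperm crawl with a pseudopod, and filaments of major sperm protein take the place of actin in its movement. The protein is also released from sperm and signals to oocytes and the gonad sheath, where it promotes oocyte maturation and ovulation. The ssp genes code for small proteins built around the same kind of domain. Genes of spermatogenesis are known targets of 26G-RNAs, antisense small RNAs that start with G and are made by the polymerase RRF-3 in the ERI complex. In the male germline these are bound by the Argonautes ALG-3 and ALG-4, and they can trigger 22G-RNAs, shorter secondary antisense RNAs made by other RNA-dependent RNA polymerases.

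Libraries held 973971 to 2205341 genome-aligned reads. The fewest stood in the third wild type library, which had 7042 26G reads (antisense, 26 nt, first base G) on protein-coding genes against 18012 to 41833 in the other 5. Antisense 22G reads (21 to 23 nt, first base G) on prg-1 itself numbered 143, 441 and 88 in wild type against 7, 15 and 9 in the mutant. The labels do not say that replicates came from separate cultures, so p-values below measure only the spread between these libraries. Levels are counts per 1000000 reads of the same class on the genes tested (CPM), given as mean ± SD over 3 libraries, and changes are log2 fold changes of prg-1 null over wild type ± SE.

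The msp genes are short and clustered. In the annotation of the WBcel235 genome, 13 lie on chromosome II (4785861 to 5810342) and 18 on chromosome IV, 9 of these between 5055593 and 5316944 and the other 9 between 9688982 and 10143775. Each has 1 exon, and their transcripts are 234 to 573 bases long. The ssp genes have transcripts of 381 to 528 bases, 9 with 1 exon and 3 with 2 exons, and they lie on chromosomes I (4 genes), IV (6 genes) and V (2 genes). Many of these genes encode the same or nearly the same protein: 13 msp genes share 1 protein description, and another 4 share a second.

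Such likeness limits what can be said of a single gene. In the deposited table each read was placed on 1 transcript, and among the 6297 protein-coding genes with 2 or more isoforms the isoform listed first held 93.0% of 22G reads, 93.4% of 26G reads and 89.2% of sense reads. Reads spread evenly over all isoforms of all these genes would put 31.3% on the isoforms listed first. Within the msp family, msp-3, msp-10 and msp-19, the 3 listed first of the 31, held 67.4% of the 22G reads, 46.1% of the 26G reads and 63.0% of the sense reads of the family, where an even spread would give 9.68%. Reads that fit later copies may stand on these 3 genes. Family sums do not depend on how reads were placed within the family, and are therefore given beside each gene.

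**Figure D1:**
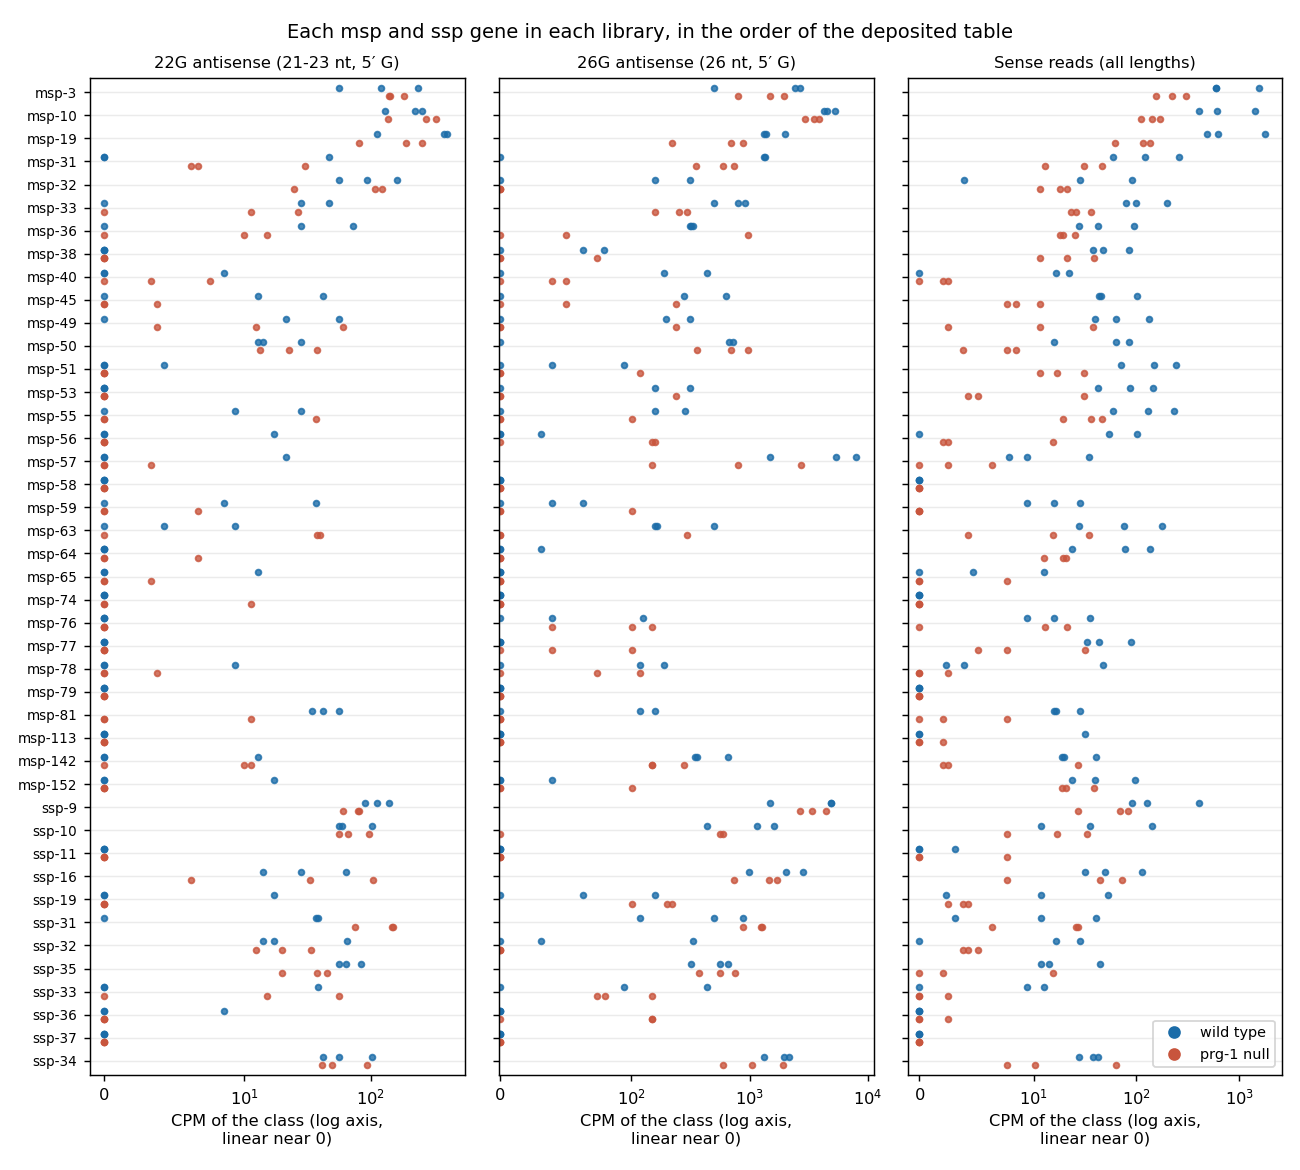
CPM of each gene (rows, in the order of the deposited table) in each library, for 22G, 26G and sense reads; blue points are wild type and red points prg-1 null libraries, on a log axis that is linear near 0. The 3 msp genes listed first carry most 22G and sense reads, while msp-57 and ssp-9 stand beside them for 26G reads.

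The msp and ssp genes carried many 26G-RNAs among their antisense reads. Of all antisense reads on msp genes, 26G reads made up 58.8%, 49.8% and 28.3% in wild type against 32.2%, 37.6% and 23.5% in the mutant. On ssp genes the shares were 46.5%, 40.9% and 36.4% in wild type against 30.9%, 32.2% and 28.4% in the mutant. On all other protein-coding genes, without rbd-1 and daf-15, which together held 189368 to 405757 reads a library, they were 12.1%, 7.59% and 4.47%, and 5.69%, 6.44% and 4.36%. Each library thus had a higher share of 26G reads on both families than on the other genes, and the genotypes overlapped for msp genes but not for ssp genes.

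**Figure D2:**
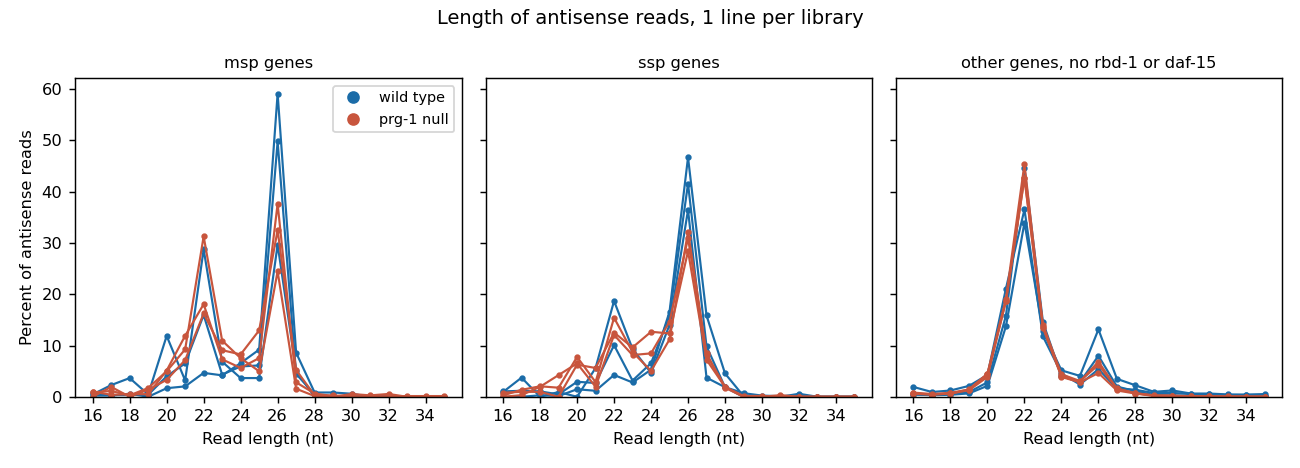
Share of antisense reads at each length (nt) on msp genes, ssp genes and all other protein-coding genes without rbd-1 and daf-15, with 1 line per library, blue for wild type and red for prg-1 null. A peak at 26 nt stands on msp and ssp genes, and a peak at 22 nt leads on the other genes.

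Set against 22G reads, the same contrast was seen as a ratio. The msp genes had 6.65, 2.26 and 1.00 26G reads per 22G read in wild type against 1.52, 1.15 and 0.552 in the mutant. For ssp genes the ratio was 6.47, 2.98 and 1.56 in wild type against 1.86, 1.56 and 1.19 in the mutant. Over all protein-coding genes it was 0.293, 0.137 and 0.101 in wild type against 0.103, 0.115 and 0.0725 in the mutant. The ratio was highest in the first wild type library for all 3 sets of genes, and the groups overlapped in each set. Related genes carried many 26G reads as well. Over 5 genes with the same domain under other names, wild type libraries held 170 26G and 34 22G reads, and mutant libraries 75 and 51. For 20 genes of the sperm cytoskeleton and of sperm assembly these were 644 and 369, and 539 and 943. For 14 sperm markers they were 424 and 494, and 322 and 4368. In wild type, a profile rich in 26G reads was thus not particular to msp and ssp genes.

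As a share of the class, msp genes took 0.885% to 1.80% of the 26G reads of wild type libraries and 0.610% to 0.887% of those of mutant libraries. They took 0.0443% to 0.109% of 22G reads over the 6 libraries. The ssp genes took 0.530% to 0.960% of 26G reads and 0.0294% to 0.0524% of 22G reads.

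Among single genes, ssp-9, msp-10 and msp-57 had the most 26G reads. The gene ssp-9 (WBGene00006038; chromosome IV, 4994324 to 4994739, minus strand) had 124, 156 and 9 reads in wild type against 36, 111 and 67 in the mutant. Reads on msp-10 (WBGene00003425; chromosome IV, 9837616 to 9838065, plus strand) numbered 115, 136 and 32 in wild type against 40, 88 and 77 in the mutant. Those on msp-57 (WBGene00003450; chromosome IV, 5062534 to 5062995, plus strand) numbered 136, 252 and 9 in wild type against 2, 69 and 16 in the mutant. Per kilobase of transcript, the mean 26G level over 6 libraries was 9057 CPM for msp-10, 8714 CPM for ssp-9 and 6672 CPM for msp-57, and their ranges over libraries overlapped. The next 3 by reads were msp-3, ssp-16 and ssp-34, with 232, 224 and 187 reads and a 26G level of 3584, 3764 and 3307 CPM per kilobase. At the other end, 5 msp and 2 ssp genes had no 26G read, which allows up to 3 reads over the 6 libraries each, and the median msp gene had 14 reads in all.

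The 26G-RNAs of msp-57 fell in prg-1 null males. Its 26G level was 4933 ± 3240 CPM in wild type against 1232 ± 1351 CPM in the mutant (SD, n = 3 each), a log2 fold change of -1.98 ± 0.52 (edgeR adjusted p = 0.0305). The third wild type library, at 1489 CPM, lay below the second prg-1 null library, at 2745 CPM, so the groups overlapped. The call was lost without the second wild type library (adjusted p = 0.445), the first mutant library (0.200) or the third mutant library (0.560), as well as in DESeq2 (0.567; 1.71e-06 to 0.567 over all alternatives). It was also lost when libraries were scaled to genome-aligned reads (adjusted p = 0.217). Few 22G reads stood on this gene: 0, 5 and 0 in wild type against 0, 0 and 1 in the mutant.

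No other member was called for 26G reads. Of 31 msp genes, 7 had enough reads to test and 1 was lower, and of 12 ssp genes 6 were tested and none passed in edgeR (0 at an unadjusted p under 0.05; 0 calls in DESeq2 and in limma-voom). Over all 643 genes tested, 0.467% were lower and 1.71% higher in prg-1 null. The median log2 fold change was -0.86 for the 7 msp genes and -0.40 for the 6 ssp genes, beside 0.03 over all genes tested. Below an unadjusted p of 0.05 but short of the adjusted threshold were msp-19 (log2 fold change -1.35 ± 0.57, edgeR adjusted p = 0.372) and msp-33 (-1.72 ± 0.76, adjusted p = 0.399), the latter singled out after its values were seen. For 3 of the 7 tested msp genes, msp-10, msp-19 and msp-33, every prg-1 null library lay below every wild type library, an order that 8.09% of all tested genes showed.

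Summed over the msp family, 26G reads came to 19492, 23543 and 10257 CPM in wild type against 8668, 11698 and 8280 CPM in the mutant. The means were 17764 ± 6809 and 9549 ± 1871 CPM, and the groups overlapped, since the third wild type library lay below the second prg-1 null library. The ssp sum was 12559, 10970 and 6452 CPM in wild type against 7038, 9390 and 8882 CPM in the mutant, and overlapped as well. By place, the 9 msp genes between 9688982 and 10143775 of chromosome IV, among them msp-10, had 5336 ± 253 CPM in wild type against 4115 ± 256 CPM in the mutant, without overlap. Most of this sum stood on msp-10 alone, at 4708 ± 526 and 3443 ± 453 CPM, and may include reads that fit copies elsewhere. The other cluster of chromosome IV, which holds msp-57, had 6890 ± 3945 and 2019 ± 1824 CPM, and the genes of chromosome II had 5537 ± 3234 and 3415 ± 829 CPM, both with overlap. Sums carry no test, since the genes were chosen with earlier results known.

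**Figure D3:**
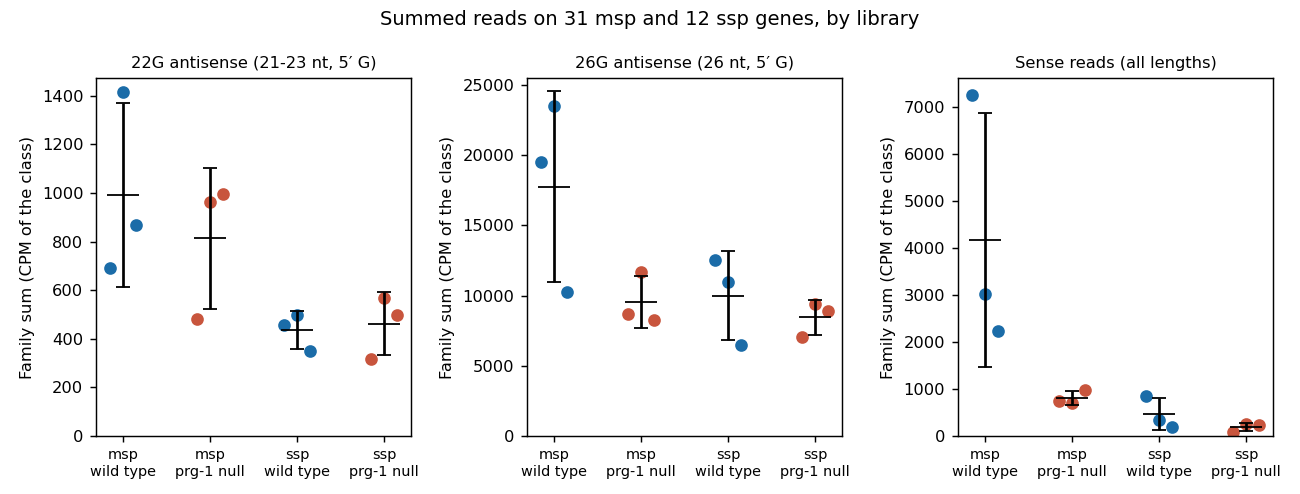
Summed CPM of the 31 msp and 12 ssp genes in each library (points; blue wild type, red prg-1 null) for the 3 read classes, with bars for mean ± SD. The groups are apart for sense reads on msp genes, at 2221 CPM and over in wild type against 975 CPM and under in the mutant, and overlap for the other 5 sums.

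For 22G reads, msp genes were sparsely covered in both genotypes. The family sum was 690, 1417 and 868 CPM in wild type against 479, 964 and 997 CPM in the mutant. The ssp sum was 457, 499 and 350 CPM in wild type against 318, 568 and 497 CPM in the mutant. Both sums overlapped between genotypes. The 3 msp genes with most reads were msp-10 with 281, msp-19 with 272 and msp-3 with 188 over the 6 libraries, and 7 msp and 2 ssp genes had none. Per kilobase of transcript their mean 22G levels were 499, 519 and 322 CPM.

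Reads for a test of 22G-RNAs were present on 4 msp genes (msp-3, msp-10, msp-19 and msp-32), and edgeR, DESeq2 and limma-voom called none of them (0 at an unadjusted p under 0.05 in edgeR). Over all 2879 genes tested, 12.4% were higher and 32.6% lower in prg-1 null. The 4 log2 fold changes were 0.07 ± 0.55 for msp-3, 0.27 ± 0.50 for msp-10, -0.75 ± 0.54 for msp-19 and -0.31 ± 0.66 for msp-32. Their median was -0.12, and that of the 5 tested ssp genes was -0.18, beside -0.11 over all genes tested. Changes of the size of these SEs, and larger ones, could go undetected at this depth. On simulated data the 22G fit over 2879 genes recovered 57% of 4-fold changes.

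The gene ssp-31 (WBGene00006048, chromosome I, 13219056 to 13219545, plus strand) codes for a sperm-specific class P protein. It was the only member called for 22G reads, where 4 msp and 5 ssp genes were tested and 12.4% of all tested genes were higher. It had 4, 9 and 0 reads in wild type against 12, 40 and 44 in the mutant, and every prg-1 null library lay above every wild type library in CPM. That order was seen in 20.7% of all 2879 genes tested. The reverse order was seen in 2 of the 5 tested ssp genes and in 34.4% of all genes tested. The level of ssp-31 was 25.2 ± 21.9 CPM in wild type against 124 ± 42.8 CPM in the mutant, a log2 fold change of 2.09 ± 0.75 (edgeR adjusted p = 0.0253). The call rested on few reads: leaving out wild type library 1, 2 or 3 gave adjusted p = 0.0536, 0.0704 and 0.0600, and leaving out mutant library 2 or 3 gave 0.0681 and 0.0903 (0.00585 to 0.0903 over all alternatives). The 26G reads of ssp-31 numbered 3, 28 and 3 in wild type against 12, 32 and 25 in the mutant, with a log2 fold change of 1.16 ± 0.64 that did not pass (edgeR adjusted p = 0.528). Its sense reads, too few to test, numbered 1, 17 and 3 in wild type against 7, 10 and 3 in the mutant.

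**Figure D4:**
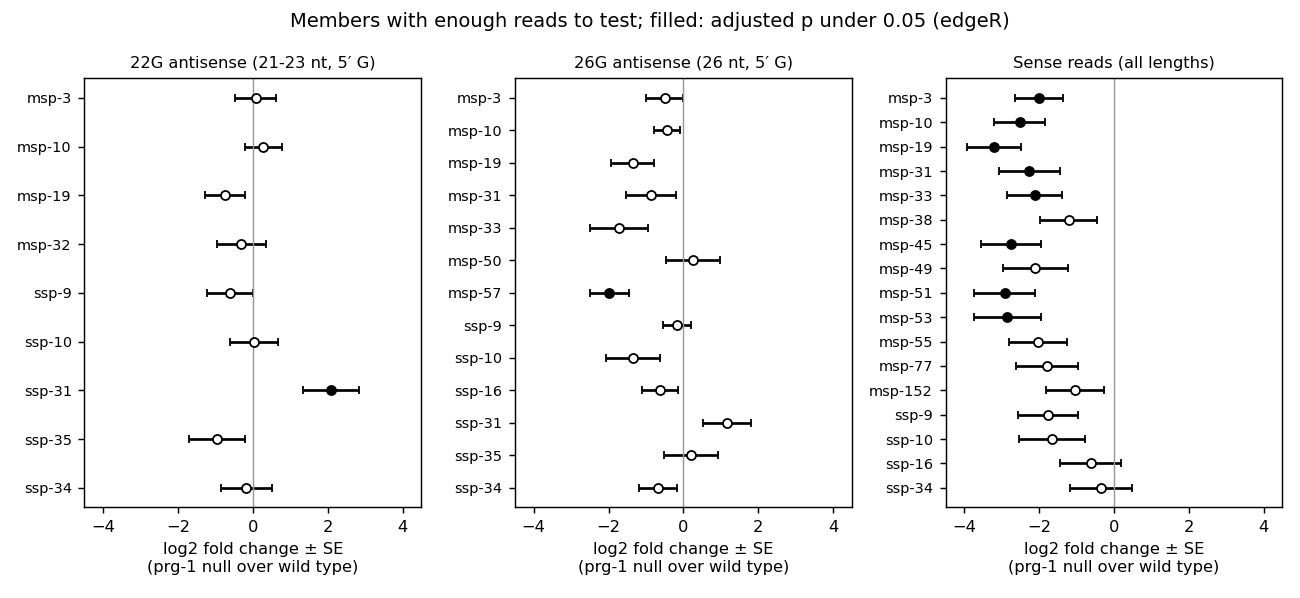
Log2 fold change of prg-1 null over wild type with SE (bars) for each msp and ssp gene with enough reads to test, by read class; filled points have an edgeR adjusted p under 0.05. All 17 sense values lie below 0 and 8 of them, all msp genes, are filled; msp-57 is filled for 26G reads and ssp-31 for 22G reads.

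Sense reads, which have the sequence of the mRNA strand, were fewer on msp genes in prg-1 null males. The libraries were made from small RNA, so these reads are short pieces and not a measurement of mRNA. The family sum was 7247, 3012 and 2221 CPM in wild type against 745, 698 and 975 CPM in the mutant. The lowest wild type library was above the highest prg-1 null library, and the first wild type library was the highest. The means were 4160 ± 2702 and 806 ± 148 CPM, 5.16-fold higher in wild type, and 3.25-fold higher without the first wild type library. Per 1000000 genome-aligned reads without rbd-1 and daf-15, the sums were 2230, 811 and 904 in wild type against 228, 196 and 256 in the mutant. In whole animals, fewer sperm or spermatocytes and less RNA in each cannot be told apart. Longer sense reads were also more frequent in wild type libraries on other genes, as given below. The part of that shift in the msp difference was not tested.

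Of 31 msp genes, 13 had enough sense reads to test, and 8 were lower in prg-1 null by edgeR: msp-3, msp-10, msp-19, msp-31, msp-33, msp-45, msp-51 and msp-53. Over all 713 genes tested, 13.9% were lower and 11.6% higher. Without 1 library the msp count was 1 of 13 tested (wild type library 1), 7 of 13 (wild type library 2) or 9 of 19 (wild type library 3). It was 2 of 19 (mutant library 1), 0 of 19 (mutant library 2) or 1 of 19 (mutant library 3). Without mutant library 2, 4 were lower at an unadjusted p under 0.05. Each of these fits had fewer libraries. Over all genes tested, 62 of 904, 120 of 899 and 132 of 1080 were lower without each wild type library in turn. Without each mutant library these were 110 of 1097, 89 of 1017 and 77 of 1074. The msp count was also 1 of 28 without a filter on low counts (97 of 13737 over all genes). Without TMM scaling it was 5 of 13 (88 of 713 over all genes). The 4 tested ssp genes gave no call in edgeR (1, ssp-9, had an unadjusted p under 0.05), DESeq2 or limma-voom. All 17 log2 fold changes lay below 0, from -3.20 to -0.35, with medians of -2.12 for msp and -1.14 for ssp genes beside -0.16 over all genes tested. Every prg-1 null library was below every wild type library for 11 of the 13 tested msp genes and 1 of the 4 tested ssp genes, an order seen in 20.8% of all tested genes.

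The largest of these 8 changes was that of msp-19 (WBGene00003426; chromosome IV, 5260554 to 5261010, plus strand). Its sense reads numbered 567, 264 and 123 in wild type against 30, 24 and 64 in the mutant, a log2 fold change of -3.20 ± 0.72 (edgeR adjusted p = 0.00330). For msp-10 they numbered 452, 254 and 103 against 37, 43 and 79, with a log2 fold change of -2.52 ± 0.68 (adjusted p = 0.0112). The gene msp-3 (WBGene00003424; chromosome II, 4785861 to 4786316, minus strand) had 491, 251 and 152 reads in wild type against 40, 86 and 143 in the mutant, a log2 fold change of -2.01 ± 0.65 (adjusted p = 0.0309). In read counts the third prg-1 null library of msp-3 came close to the third wild type library, but in CPM it stood at 303 against 595, so none of these 3 genes overlapped between genotypes.

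The other 5 called genes had fewer reads. Sense reads on msp-51 numbered 78, 62 and 18 in wild type against 3, 12 and 8 in the mutant (log2 fold change -2.93 ± 0.81, edgeR adjusted p = 0.0130). On msp-53, a neighbour of msp-57 in the first cluster of chromosome IV, they numbered 46, 18 and 22 against 8, 2 and 2 (-2.85 ± 0.90, adjusted p = 0.0273). On msp-45 they numbered 32, 19 and 11 against 3, 3 and 4 (-2.74 ± 0.80, adjusted p = 0.0178). On msp-33 they numbered 63, 42 and 20 against 6, 10 and 17 (-2.12 ± 0.74, adjusted p = 0.0429). On msp-31 they numbered 83, 51 and 15 against 8, 5 and 22 (-2.27 ± 0.82, adjusted p = 0.04999, just under the threshold). All 5 lay lower, in CPM, in every prg-1 null library than in any wild type library. Short of the threshold, msp-55 had 74, 55 and 15 against 5, 18 and 17 reads (-2.03 ± 0.78, adjusted p = 0.0630).

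On the ssp genes no difference in sense reads passed the test. Sense reads on ssp-9 numbered 128, 53 and 23 in wild type against 7, 27 and 39 in the mutant, with a log2 fold change of -1.77 ± 0.80 (edgeR adjusted p = 0.108). The ssp sum was 837, 335 and 196 CPM in wild type against 84.5, 246 and 225 CPM in the mutant, and the third wild type library lay below both the second and the third prg-1 null library. Per 1000000 genome-aligned reads without rbd-1 and daf-15 it was 257, 90.3 and 79.7 against 25.9, 69.0 and 58.9, with every mutant library below every wild type library. The difference between the 2 families was not tested.

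Sums over groups of close copies, which do not depend on how reads were placed within a group, differed in the same direction. The 13 genes with 1 shared protein description had 7.49-fold more sense CPM in wild type, the group of msp-10, msp-36, msp-56 and msp-76 had 5.22-fold more, and neither overlapped between genotypes. Without the first wild type library these were 4.598-fold and 3.30-fold. Without msp-3, msp-10 and msp-19, the other 28 msp genes had 1484 ± 921 CPM in wild type against 337 ± 31 CPM in the mutant, 4.41-fold more in wild type (2.88-fold without the first wild type library) and without overlap. The cluster of chromosome II had 1681 ± 1043 and 408 ± 82.2 CPM, and the first cluster of chromosome IV 1397 ± 967 and 177 ± 24.0 CPM. The second had 1082 ± 694 and 221 ± 43.8 CPM, and each was without overlap. Unlike the group sums, the sums over 28 genes and by cluster do depend on how reads were placed between copies. The 13 genes with a shared description lie in all of these clusters.

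The length of sense reads moved with genotype. Reads of 27 nt and over made up 81.7%, 56.6% and 61.7% of sense reads on msp genes in wild type against 39.7%, 40.3% and 27.2% in the mutant. On the other protein-coding genes without rbd-1 and daf-15 they made up 39.1%, 12.4% and 16.4% in wild type against 8.04%, 7.17% and 5.26% in the mutant, so longer sense pieces were more frequent in wild type libraries on other genes as well. Set against sense reads of the same length class, msp genes had 3965 ± 1522 reads of 26 nt and under per 1000000 in wild type against 1410 ± 394 in the mutant, 2.81-fold more in wild type. Of reads of 27 nt and over they had 30597 ± 8516 and 10477 ± 1721 per 1000000, 2.92-fold more in wild type, and neither class overlapped. Per 1000000 genome-aligned reads without rbd-1 and daf-15 the same reads gave other sizes. The shorter reads came to 368 ± 33.5 in wild type against 147 ± 35.5 in the mutant, 2.51-fold more in wild type. The longer came to 947 ± 760 against 79.7 ± 10.6, 11.9-fold more in wild type and 6.38-fold more without the first wild type library. With reads of 26 nt and under alone, 4 msp genes could be tested and 1 was lower, beside 68 of all 568 genes tested. With 27 nt and over alone, 5 msp genes were tested and edgeR called none (2 were lower at an unadjusted p under 0.05). In that fit 0 of all 96 genes tested were called lower and 7 higher.

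**Figure D5:**
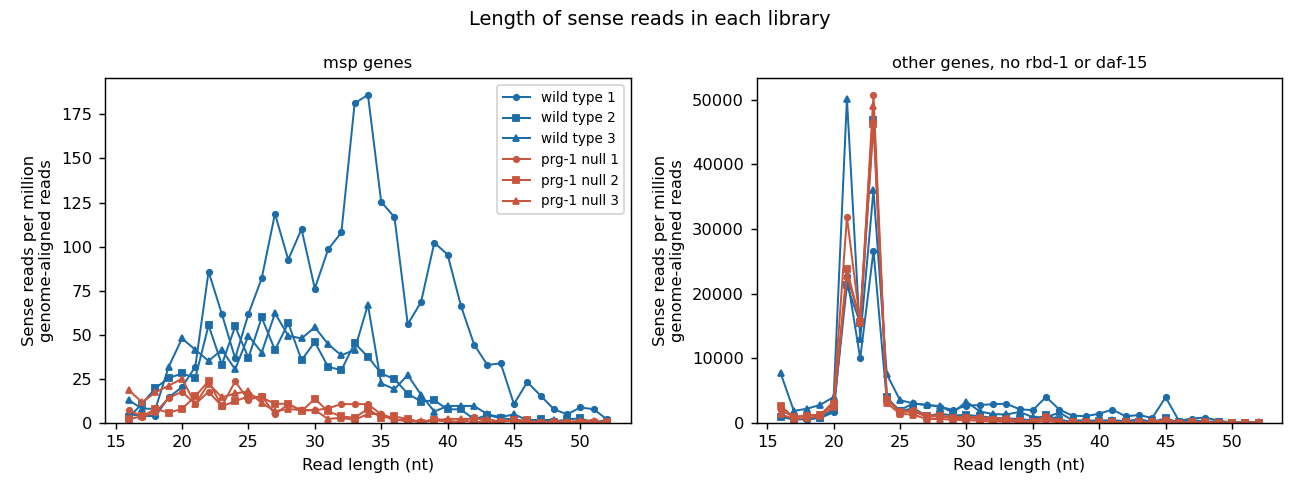
Sense reads per 1000000 genome-aligned reads at each length (nt) on msp genes (left) and on all other protein-coding genes without rbd-1 and daf-15 (right), with 1 line per library, blue for wild type and red for prg-1 null. On msp genes the wild type lines lie above the prg-1 null lines at most lengths and the first wild type library stands highest from 27 nt on, while reads on other genes gather at 21 to 23 nt.

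Other genes tied to major sperm protein were read from lists. Of 5 genes with the same domain under other names (msd-1 to msd-4 and vpr-1), 2 were tested for sense reads and none passed in edgeR, while DESeq2 called both and limma-voom neither. The gene msd-1 had 221, 151 and 57 sense reads in wild type against 42, 40 and 67 in the mutant (log2 fold change -1.65 ± 0.67, edgeR adjusted p = 0.0811). For msd-4 they numbered 58, 27 and 22 against 9, 13 and 16 (-1.69 ± 0.73, adjusted p = 0.0955). In CPM neither gene overlapped between genotypes; both are named after their values were seen. For 26G reads msd-1, the only 1 of the 5 tested, had 67, 74 and 10 against 9, 34 and 14 reads (-1.28 ± 0.49, adjusted p = 0.260). For 22G reads it was again the only 1 tested, at -0.21 ± 0.75.

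Among 20 genes of the sperm cytoskeleton and of sperm assembly that were found in the table, 9 were tested for 22G reads and 1 was higher, beside 12.4% of all genes tested. This was gska-3, a glycogen synthase kinase of sperm, with 1, 10 and 5 reads in wild type against 25, 41 and 31 in the mutant (log2 fold change 1.80 ± 0.70, edgeR adjusted p = 0.0403; not called in DESeq2 or limma-voom). For sense reads 4 were tested and 1 was lower, beside 13.9% of all genes tested. It was spe-15, which codes for a myosin needed for the sorting of organelles in sperm. It had 80, 15 and 27 reads in wild type against 4, 6 and 12 in the mutant (-2.76 ± 0.84, edgeR adjusted p = 0.0226; called in DESeq2 but not in limma-voom). For 26G reads 6 were tested and edgeR, DESeq2 and limma-voom called none, with 0 at an unadjusted p under 0.05 in edgeR. The genes spe-4, gsp-3 and gsp-4 of this list are also among the sperm markers below, so the 2 lists are not independent.

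Markers of sperm, and of oocytes and yolk, were read beside the msp genes, the latter chosen as absent from males. Of 14 sperm markers, 5 were tested for sense reads and none was called in edgeR (1 was higher at an unadjusted p under 0.05, DESeq2 called 1 and limma-voom 0). The higher 1, singled out after its values were seen, was fer-1, which codes for a ferlin of membrane fusion in sperm, with 3, 14 and 3 reads in wild type against 9, 31 and 46 in the mutant. The fitted log2 fold change was 1.91 ± 0.79 for fer-1, and below 0 for the other 4 tested, at -1.29 ± 0.89 for gsp-3, -1.56 ± 0.76 for gsp-4, -0.79 ± 0.84 for smz-1 and -0.999 ± 0.81 for smz-2. Sense reads on gsp-4, a phosphatase of sperm, numbered 55, 25 and 14 against 8, 8 and 21, without overlap in CPM. The summed sense level of the 14 was 172 to 759 CPM in wild type against 146 to 299 CPM in the mutant. Of 18 oocyte and yolk markers, the yolk gene vit-5 and the eggshell gene cpg-1 were at 0, and puf-5, the only 1 tested, was not called in edgeR (0 at an unadjusted p under 0.05), DESeq2 or limma-voom. All 18 summed to 116 to 325 CPM in wild type against 123 to 227 CPM in the mutant, and puf-5 held 96 of their 174 wild type and 180 of their 205 mutant sense reads. Without puf-5, a sum taken after the values were seen, the other 17 had 78 reads in wild type against 25 in the mutant. That is 78.4, 94.4 and 50.9 CPM against 23.04, 25.6 and 19.1 CPM, so the sum of these 17 was lower in every mutant library, as that of the msp genes was. The sums of the 14 sperm markers and of all 18 oocyte and yolk markers overlapped between genotypes, and the part of any of these markers in the msp result was not tested.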

How the data were processed

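Small RNA of whole males was sequenced in 6 libraries, 3 of each genotype. RNA was treated with an acid pyrophosphatase, which lets 5′ triphosphate RNAs be cloned, per the labels' protocols. FastQC 0.12.0, cutadapt 3.7 and the build WBcel235 were used, per the submitters' processing notes. Neither the aligner nor the rule by which it placed ambiguous reads is given in the sources used here. As deposited, the expected counts are whole and not normalized, and the authors' placement rule is unstated. Beside each of them another deposited column splits those reads by size and 5′ base, from which the read classes were taken. Rounding changed nothing. Gene positions and descriptions are from the annotation of WBcel235.

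The isoform with the highest mean stood for its gene. All protein-coding genes with enough reads (filterByExpr) were fitted per class with edgeR 4.0.16 (R 4.3.3): TMM scaling, quasi-likelihood test, genotype as the only term, Benjamini-Hochberg threshold of 0.05, 3 libraries a group. CPM are per 1000000 reads of the tested genes after TMM scaling. On simulated data the sense fit over 713 genes recovered 28% of 4-fold and 71% of 16-fold changes, the 26G fit over 643 genes 67% and 87%, and the 22G fit over 2879 genes 57% and 82%. Alternatives were DESeq2 1.42.0, limma-voom 3.58.1, other scalings, filters and read lengths, summed isoforms, a replicate block and leaving out each library; the split of sense reads by length was added after seeing the data. The members, the gene lists and the rule for named genes were chosen with earlier results of these data known. Named are members past the threshold, the 6 members with most reads in each class, ssp-31, msp-10 and msp-19, and, of the other lists, up to 4 genes past the threshold. Of 24 genes listed for the sperm cytoskeleton and assembly, 20 were found. Reads carry no molecular identifiers, so limits on a count of 0 cover counting error only. Sequences of the genes were not used here.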

Additional observations from a re-analysis of the deposited data

How the results depend on the processing

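Depth limits all single-gene values: most members had too few reads to test, and near-identical genes may exchange reads. The 26G and sense sums of both families kept their direction under genome-aligned scaling, summed isoforms and each library left out. The 22G sums, close to 0, did not: the msp log2 ratio was -0.29, 0.21 when scaled to genome-aligned reads and -0.49 to 0.06 with a library left out. Such scaling moved the median log2 fold change of all tested genes from -0.11 to 0.44 for 22G, 0.03 to -0.26 for 26G and -0.16 to -0.33 for sense reads. For 22G reads, the 1 higher member became 0 without a filter on low counts and 0 to 1 when a library was left out. With 22-nt reads alone the count was 0, but no ssp gene had enough reads to test. With all antisense reads, which hold 26G reads as well, 2 members were lower, where none was for 22G reads. The ssp ratio was 0.08, 0.64 when scaled to genome-aligned reads and -0.10 to 0.29 with a library left out. Signs turned for msp-10 (-0.058 with 22-nt reads, -0.50 with all antisense reads), msp-3 (-0.29 with all antisense reads, -0.085 with at least 10 reads in 3 libraries, -0.23 to 0.78 with a library left out, below 0 without wild type library 1 or 3 or mutant library 3) and msp-32 (0.0042 with 22-nt reads, 0.17 on genome-aligned scaling, -0.70 to 0.22 with a library left out, above 0 without mutant library 1 or wild type library 2), none of them called in any fit. For 26G reads, ssp-9 ranged from -0.48 to 0.062 with a library left out, above 0 without wild type library 2. The 1 lower member became 0 with DESeq2 and genome-aligned scaling, and 0 to 1 when a library was left out. Over all genes the 14 calls became 3 with genome-aligned scaling, 23 with limma-voom, 40 with reads of 25 to 27 nt and 8 to 28 when a library was left out. For sense reads, the 8 lower members became 5 without TMM scaling, 1 without a filter, 1 with reads of 26 nt and under and 0 with 27 nt and over, and 0 to 9 when a library was left out. Over all genes 182 calls became 7, all of them higher, with reads of 27 nt and over. The log2 ratio of the msp sum was -2.37, and -1.14 and -3.42 with the shorter and the longer reads. Leaving out a library gave -2.67 to -1.70, the latter without the first wild type library. For the ssp sum it was -1.30, and -0.33 and -3.44 with the shorter and the longer reads. The cause of these shifts was not tested. With a replicate block, 26G calls over all genes fell to 7 and the lower 26G member to 0. Lower sense members fell to 4, and 22G calls stood at 1196 against 1295. Deviations of same-numbered libraries from their group means had correlations of -0.24 to 0.04. Those of differently numbered libraries were -0.26 to 0.31 for sense reads. With 3 libraries a group these values cannot settle whether the numbers pair the samples.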

Other observations

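The msp pseudogenes, left out above, carried few reads. On msp-71 there were 20 antisense reads over the 6 libraries, 12 of them 26G reads, with 4, 5 and 0 in wild type against 0, 3 and 0 in the mutant. The pseudogene msp-42 had 4 antisense reads, 3 of them 26G reads in the third wild type library. No antisense read stood on msp-37 or msp-52.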
